A study of Mus musculus with 18 samples.

Results

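Complement genes of macrophages were followed through osteoclast differentiation in 9 genes of the 34745 in the deposited table, matched by gene symbol. They were C1qa, C1qb and C1qc, C4b, C3, Cfb, Cfp, C3ar1 and C5ar1, and all 9 passed the filter on low counts. Bone marrow-derived macrophages (BMDMs) from Zmat1 knockout mice and wild-type littermates had been grown with the growth factor M-CSF (for 3 days per the series' design text and 4 in the general culture methods) and profiled by RNA sequencing before (day 0) or after 1 or 3 days of RANKL, the cytokine under which macrophage precursors fuse and become osteoclasts, the cells that resorb bone. All 6 groups had received M-CSF, and each held 3 libraries labelled WT or KO (Zmat1 ko in the labels) at 1 of the 3 days. In WT day 1, 2 of the 3 libraries carry the number 1 in their titles (libraries 1 and 1b here) and none carries the number 3, and the labels do not say what a shared number stands for. With their average as 1 library, the counts of members called did not change. The deletion was made in the whole mouse, not in macrophages alone, and the mice had a C57BL/6 background and were 4 to 8 weeks old. Nothing in the labels said whether the libraries of a group came from separate animals, so p-values measure only the spread between these libraries, which may be technical.

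Complement is a cascade of plasma proteins that marks targets for uptake and attracts phagocytes. C1q, built from the products of C1qa, C1qb and C1qc, opens the classical pathway by binding immune complexes or dying cells, which leads to cleavage of C4 and then of C3, where all routes meet. Factor B (Cfb) and properdin (Cfp) form and stabilise the C3-cleaving enzyme of the alternative pathway, and the peptides released from C3 and C5 act on the G protein-coupled receptors C3ar1 and C5ar1. Unlike most complement proteins, which come from the liver, C1q and properdin are made largely by myeloid cells, and C3 has been described as a factor that promotes osteoclast formation in marrow cultures.

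Total counts per library ran from 13789775 to 17559958. CPM are counts per 1000000 of the library size after TMM scaling, which uses a trimmed mean of gene-wise log ratios to a reference library. Of the macrophage markers, all 12 were detected. Their summed level was 31240 to 61540 CPM in the 12 libraries of days 0 and 1 and 6497 to 17890 CPM on day 3. Osteoclast markers reached 8293 to 23380 CPM on day 3, and the sum of 12 stromal markers, collagen genes among them, went from 114 to 9180 CPM on days 0 and 1 to 12320 to 33240 CPM. In bulk RNA, fewer cells of a type and less RNA per cell cannot be told apart. Zmat1 had 32 to 91 counts in the 9 libraries labelled WT and 49 to 99 in the 9 labelled KO, so its counts did not follow the labels, and groups are called here by their labels. A double hyphen in the title set 5 libraries of days 0 and 1 apart from the other 13 (WT day 0 library 1, KO day 0 library 2, WT day 1 library 1b, KO day 1 libraries 1 and 2), and no day 3 library had it.

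The members were spread over chromosomes 4, 6, 7, 17 and X (GRCm38), all on the minus strand. C1qa (chr4:136895917-136898803), C1qc (chr4:136889804-136893065) and C1qb (chr4:136880129-136886187) lay side by side. C4b (chr17:34728380-34743882) and Cfb (chr17:34856374-34862518) shared a region of chromosome 17 with each other but not with C3 (chr17:57203970-57228136). C3ar1 was at chr6:122847138-122856161, C5ar1 at chr7:16246743-16259540 and Cfp at chrX:20925454-20931555.

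RefSeq promoter windows of 300 bases (GRCm38.p6), from 250 bases before to 50 after the start of transcription, matched 6 of the 9 genes, namely C1qb, C1qc, C3, C3ar1, C5ar1 and Cfp. The 4 printed here, read 5′ to 3′ on the gene's own strand, belong to neighbouring C1q chains that moved together, to C3, which was highest on day 1, and to the receptor of its peptide. Capitals mark matches on either strand to the letters GAGGAA (PU.1), TGCTGA (MAF), TGANTCA (AP-1) or TTGCNNAA (C/EBP), factors of macrophage and osteoclast gene control.
C1qb, chr4:136886151-136886450, strand minus: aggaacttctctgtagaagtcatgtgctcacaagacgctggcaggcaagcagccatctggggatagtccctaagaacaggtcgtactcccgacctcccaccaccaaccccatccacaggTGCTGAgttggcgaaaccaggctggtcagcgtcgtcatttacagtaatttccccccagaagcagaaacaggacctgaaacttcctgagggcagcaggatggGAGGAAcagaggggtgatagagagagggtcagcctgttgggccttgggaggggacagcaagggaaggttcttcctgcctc
C1qc, chr4:136892865-136893164, strand minus: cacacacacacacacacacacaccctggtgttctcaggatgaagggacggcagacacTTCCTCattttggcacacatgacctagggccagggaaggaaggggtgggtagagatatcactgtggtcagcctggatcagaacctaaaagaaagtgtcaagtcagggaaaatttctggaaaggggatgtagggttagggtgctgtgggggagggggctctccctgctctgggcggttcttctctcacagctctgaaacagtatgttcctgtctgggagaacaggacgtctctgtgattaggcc
C3, chr17:57228087-57228386, strand minus: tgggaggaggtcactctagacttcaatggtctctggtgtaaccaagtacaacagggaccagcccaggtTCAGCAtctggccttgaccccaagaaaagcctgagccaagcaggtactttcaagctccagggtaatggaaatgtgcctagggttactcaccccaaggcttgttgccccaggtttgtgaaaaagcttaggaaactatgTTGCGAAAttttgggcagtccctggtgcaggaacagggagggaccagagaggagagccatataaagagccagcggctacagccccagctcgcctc
C3ar1, chr6:122856108-122856407, strand minus: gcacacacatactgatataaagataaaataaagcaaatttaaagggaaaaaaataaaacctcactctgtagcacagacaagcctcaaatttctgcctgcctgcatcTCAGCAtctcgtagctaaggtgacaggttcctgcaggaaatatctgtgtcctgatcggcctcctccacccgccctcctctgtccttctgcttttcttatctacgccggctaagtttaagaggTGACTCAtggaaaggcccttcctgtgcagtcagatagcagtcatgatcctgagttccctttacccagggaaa

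The C1qb window held 1 PU.1 and 1 MAF match, and the C1qc window 1 PU.1 match. C3 had 1 MAF match and 1 C/EBP match at bases -45 to -38 from its start, and C3ar1 had 1 MAF match and 1 AP-1 match at bases -22 to -16. No marked matches overlapped. Of 32851 promoter windows of this length, 28.3% held the PU.1 letters, 19.5% the MAF letters, 7.81% the AP-1 letters and 10.8% the C/EBP letters. The letters GGANTTTCC (NF-kB), searched likewise, was in 1.25% of windows and in none of the 6. These matches describe the letters of the windows and do not show binding.

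Levels differed widely among the members before RANKL. Scaled by transcript length (FPKM, fragments set to the length of the transcript and to library depth), the order in WT day 0 was C1qb at 2407 ± 240 (SD, n = 3), C1qa at 1242 ± 507, C1qc at 966 ± 170, Cfp at 304 ± 46.3, C3ar1 at 205 ± 36.7, C5ar1 at 45.9 ± 37.2, C3 at 13.9 ± 6.05, Cfb at 13.6 ± 14.2 and C4b at 11.3 ± 14.8. C1qa and C1qc overlapped within their spread, and so did the 4 lowest. In the same group C1qb ranked 15th by mean FPKM in the whole table. The chains of C1q together took 0.52% to 0.727% of all counts in WT day 0 and 0.607% to 0.64% in KO day 0.

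**Figure D1:**
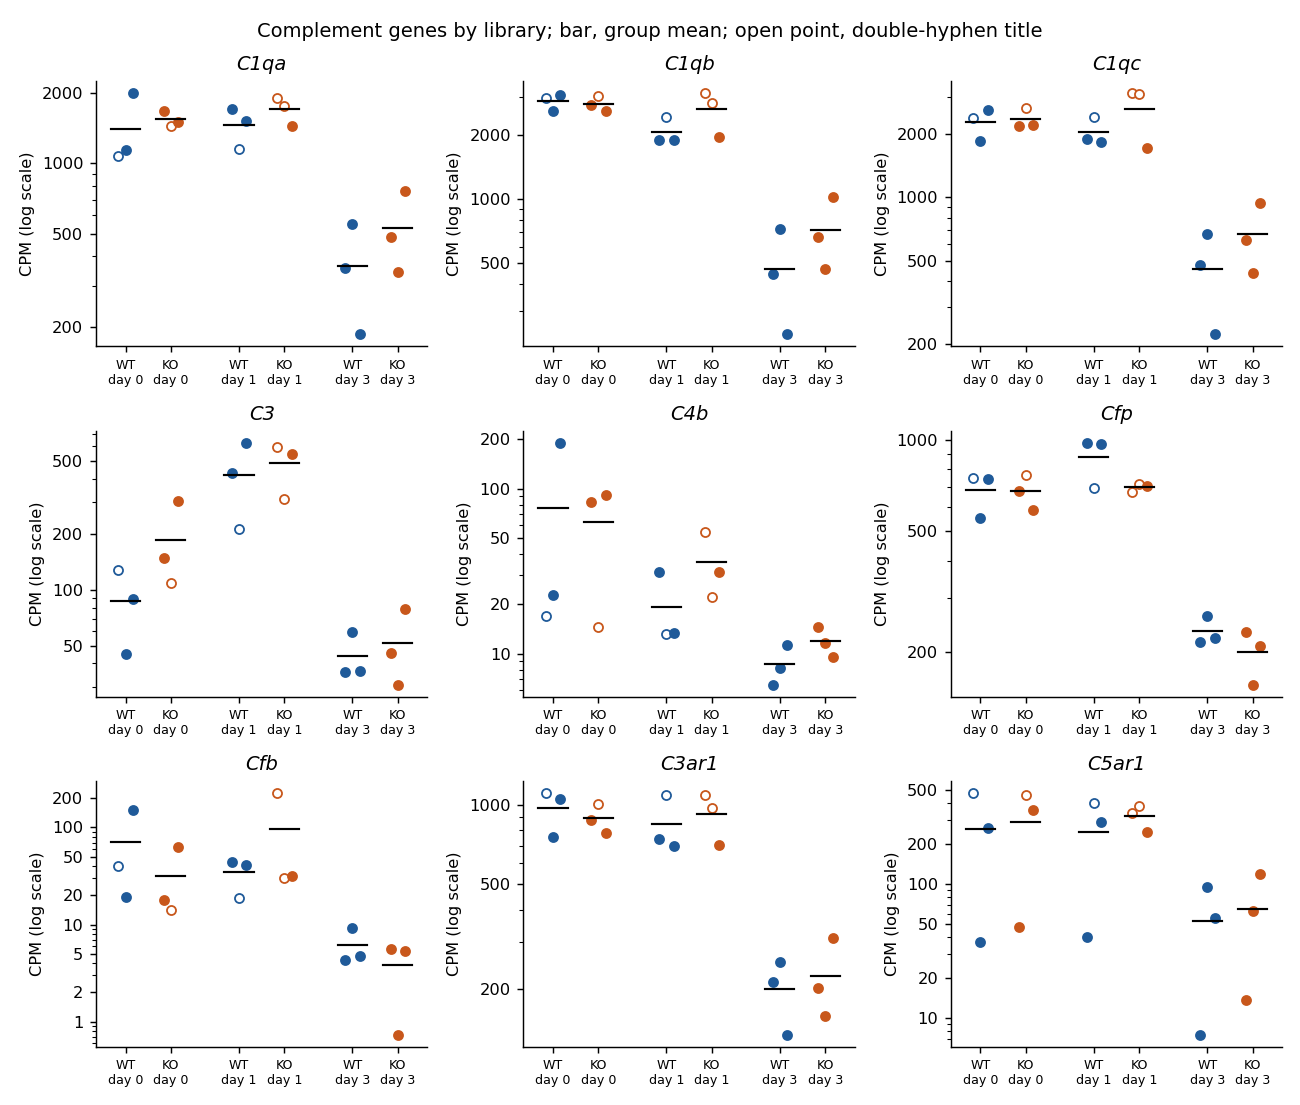
CPM on a log scale (vertical) of each complement gene in each library, by label and day (horizontal). Each point is 1 library, open where its title has a double hyphen, and bars are group means. For C1qa, C1qb, C1qc, Cfp and C3ar1 the day 3 libraries lie below all others, while C5ar1 is split within 5 of the 6 groups. How many of all genes separate in this way was not counted.

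Most members were lower after 3 days of RANKL. In the libraries labelled WT, 7 of the 9 fell between days 0 and 3, where 26.5% of the 14241 genes tested were called lower, and in those labelled KO 8 fell, against 22.3% of all genes (edgeR quasi-likelihood test, Benjamini-Hochberg adjusted p under 0.05). C3 and C5ar1 were not called in WT, and C5ar1 was not called in KO. All 9 estimates were below 0 under both labels, with a median log2 fold change of -2.30 in WT and -1.96 in KO, beside -0.03 and -0.01 over all genes tested. The 12 macrophage markers had similar medians of -2.24 in WT and -1.88 in KO, with 10 called lower under each label. From day 1 to day 3, 6 members fell in WT (19.3% of all genes) and 7 in KO (15.5%). Within the first day, 1 member rose in WT (C3) where 1.44% of genes did, and in KO 0 of 9 were called in a comparison that called 0.0211% of all genes higher.

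C1qb gave 2958, 2591 and 3075 CPM in WT day 0 libraries 1 to 3, 1882, 2430 and 1884 CPM in WT day 1 libraries 1, 1b and 2, and 447, 728 and 233 CPM in WT day 3. In the libraries labelled KO it gave 2753, 3047 and 2575 CPM on day 0, 3134, 2824 and 1959 CPM on day 1, and 663, 470.1 and 1026 CPM on day 3. Every day 3 library lay below every earlier one, and the highest day 1 library of each label was one with a double hyphen. How many of all genes separate the days in this way was not counted, here or for the members below. The fall from day 0 to day 3 was 6.13-fold in WT (log2 fold change -2.62, SE 0.36, adjusted p 7.15e-05) and 3.88-fold in KO (log2 fold change -1.96, SE 0.36, adjusted p 0.00078).

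C1qc went from 1855 to 2646 CPM over the 6 day 0 libraries to 223 to 938 CPM over the 6 of day 3, a fall of 5-fold in WT (adjusted p 0.000207) and 3.53-fold in KO (adjusted p 0.00156). C1qa went from 1078 to 2000 CPM to 185 to 761 CPM, 3.85-fold lower in WT (adjusted p 0.000748) and 2.92-fold lower in KO (adjusted p 0.0044). Neither chain overlapped between these days, and on day 1 both were still at day 0 levels (1150 to 1914 CPM for C1qa, 1711 to 3126 CPM for C1qc). By day 3 the 3 chains took 0.0771% to 0.223% of all counts in WT and 0.144% to 0.296% in KO. Among libraries the lowest C1q values on day 3 were in WT library 3, which also had the lowest sum of macrophage markers (6497 CPM). The highest were in KO library 3, which had the highest day 3 sum (17890 CPM). Day 0 went the other way in WT library 3. Its macrophage sum (31240 CPM) was the lowest of days 0 and 1, and its C1q share of counts (0.727%) was the highest of all libraries. The part of macrophage content in the result was not tested. With the 13 single-hyphen libraries alone, where KO day 1 keeps 1 library, the falls of the 3 chains from day 1 to day 3 in KO were not called (adjusted p 0.131 for C1qa, 0.12 for C1qb, 0.135 for C1qc).

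Between days 0 and 3 the chains did not fall by equal amounts. The ratio of C1qa to C1qb was 0.485 ± 0.148 (SD, n = 3) in WT day 0 and 0.556 ± 0.0705 in KO day 0, and 0.785 ± 0.0232 and 0.732 ± 0.00757 on day 3. No day 3 library overlapped a day 0 one (0.365 to 0.65 against 0.727 to 0.8). The ratio was 1.49-fold higher on day 3 (exact 2-sided permutation of days within labels, 400 orders, p = 0.005, the smallest these allow; adjusted p 0.015 over 9 ratio tests). C1qb to C1qc moved the other way, from 1.28 ± 0.11 and 1.19 ± 0.0608 on day 0 to 1.03 ± 0.0782 and 1.08 ± 0.0153 on day 3 (0.853-fold, exact permutation adjusted p 0.015), and it was already lower on day 1 (0.823-fold, exact permutation adjusted p 0.015). C1qa to C1qc rose 1.27-fold (log2 0.34, exact permutation adjusted p 0.045), a call that the unadjusted p lost without WT day 3 library 2 or library 3 (p = 0.06 each by exact permutation). With the single-hyphen libraries alone, the log2 rise of C1qa to C1qc was 0.18 and that of C1qa to C1qb was 0.43, beside 0.57 over all libraries. From day 1 to day 3 no ratio was called. C1qa to C1qb was 1.12-fold (exact permutation adjusted p 0.422), C1qa to C1qc 1.16-fold (0.322) and C1qb to C1qc 1.04-fold (0.422). From day 0 to day 1, C1qa to C1qb (1.33-fold, exact permutation adjusted p 0.135) and C1qa to C1qc (1.1-fold, 0.52) were not called. These ratios were chosen after the values were seen, and their p-values do not allow for that choice. On day 1 the ratio of C1qa to C1qb was 0.473, 0.611 and 0.623 in the 3 double-hyphen libraries and 0.741 to 0.913 in the other 3. Of the day 0 libraries, those with a double hyphen had the lowest ratio of their label (0.365 in WT library 1, 0.476 in KO library 2). No day 3 library had a double hyphen, so the permutation over all libraries does not separate day from title style.

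**Figure D2:**
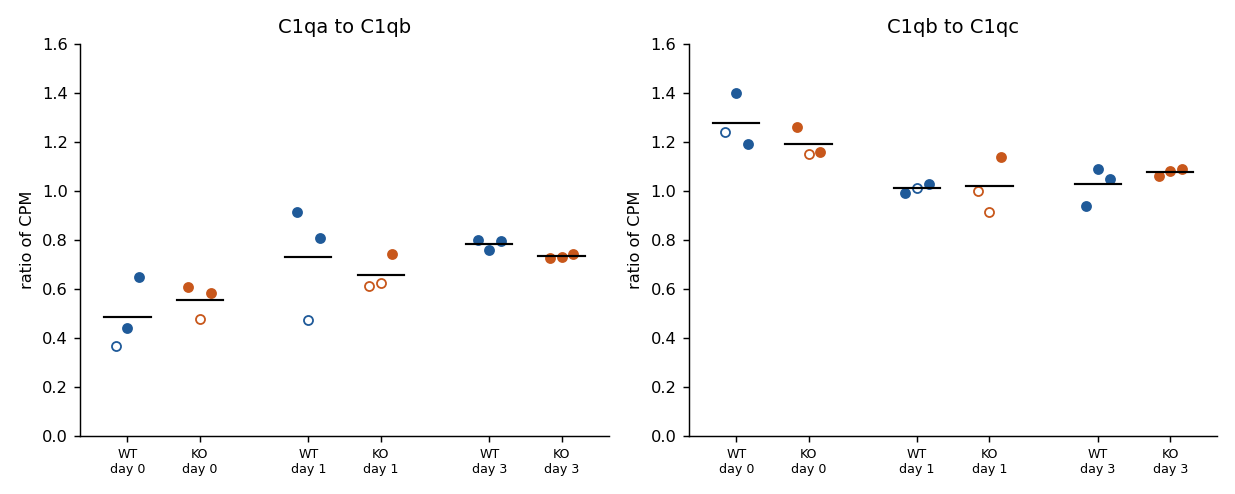
Ratio of CPM (vertical, from 0) of C1qa to C1qb and of C1qb to C1qc in each library, by label and day (horizontal). Each point is 1 library, open for a double-hyphen title, and bars are group means; C1qa to C1qb is 0.727 to 0.8 in the 6 day 3 libraries and 0.365 to 0.65 on day 0.

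C3, the protein on which all complement routes converge, had its highest values on day 1 under both labels. It gave 129, 45.0 and 88.9 CPM in WT day 0, 428, 213 and 622 CPM in WT day 1 libraries 1, 1b and 2, and 35.8, 59.0 and 36.5 CPM in WT day 3. In KO it gave 149.7, 109 and 301 CPM on day 0, 596, 311 and 543 CPM on day 1, and 45.5, 30.8 and 78.8 CPM on day 3. Within each label every day 1 library lay above every day 0 library, though only narrowly in KO, and every day 3 library lay below every day 1 library.

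The rise of C3 by day 1 was 4.81-fold in WT (log2 fold change 2.27, SE 0.51, adjusted p 0.0412), and in KO the estimate was 2.59-fold (log2 fold change 1.37, SE 0.50, adjusted p 0.37). The WT call was lost with the replicate number as a block (adjusted p 0.0578), with a block within each label (adjusted p 0.0825) and in a fit of these 2 groups alone (adjusted p 0.448). It was also lost without WT day 0 library 2 (adjusted p 0.165), WT day 1 library 1 (adjusted p 0.18) or WT day 1 library 2 (adjusted p 0.103), while the C3 estimate stayed between 1.88 and 2.99 over all alternatives. From day 1 to day 3 C3 fell 9.62-fold in WT (log2 fold change -3.27, SE 0.53, adjusted p 0.000593) and 9.35-fold in KO (log2 fold change -3.23, SE 0.53, adjusted p 0.000804), and this fall was called under every alternative run. Set against day 0, C3 on day 3 was not called in WT (log2 fold change -1.0, adjusted p 0.104) and had fallen 3.61-fold in KO (adjusted p 0.00959), a call lost without KO day 0 library 3 (log2 fold change -1.30, adjusted p 0.0602).

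Properdin, encoded by Cfp, was the steadiest member. It gave 750.4, 554 and 739.9 CPM in WT day 0, 973, 695 and 970.1 CPM in WT day 1, and 216, 263 and 222 CPM in WT day 3. In KO it gave 678, 764 and 586 CPM on day 0, 672, 716 and 702 CPM on day 1, and 233, 156 and 209.8 CPM on day 3. All day 3 libraries were below all others, and the spread between replicate libraries (biological coefficient of variation 0.174) was at the 35.9 percentile of the genes tested. The fall from day 0 was 2.92-fold in WT (adjusted p 2.64e-05) and 3.39-fold in KO (adjusted p 2.41e-05), and it was called under every alternative run.

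C3ar1, the receptor of the C3-derived peptide, gave 1105, 753 and 1054 CPM in WT day 0, 740, 1092 and 699 CPM in WT day 1, and 211, 253 and 134 CPM in WT day 3. In KO it gave 877, 1008 and 779 CPM on day 0, 1085, 975 and 706 CPM on day 1, and 201, 157 and 311 CPM on day 3. As with C1qb, the day 1 libraries with a double hyphen were the highest of their label. C3ar1 fell 4.87-fold between days 0 and 3 in WT (log2 fold change -2.28, SE 0.30, adjusted p 4.85e-05) and 3.98-fold in KO (log2 fold change -1.99, SE 0.30, adjusted p 0.000197), again under every alternative run.

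C5ar1, the receptor of the C5-derived peptide, was split within groups. It gave 475, 37.1 and 264 CPM in WT day 0, 40.4, 399.6 and 289 CPM in WT day 1 libraries 1, 1b and 2, and 7.48, 94.8 and 55.8 CPM in WT day 3. In KO it gave 47.7, 464 and 360 CPM on day 0, 339, 380.2 and 246 CPM on day 1, and 13.6, 62.9 and 119 CPM on day 3. Each group but KO day 1 had 1 library far below its other 2, and this low library was library 1 in 4 of the 5 cases. The adjoining genes did not share the split: on day 0 C5ar2 was 17 to 25.4 CPM and Inafm1 12.7 to 17 CPM over the 6 libraries (these neighbours were chosen after the values were seen). With a biological coefficient of variation of 0.836, at the 96.3 percentile, C5ar1 was not called between days 0 and 3 (log2 fold change -2.30, SE 1.11, adjusted p 0.0957 in WT and -2.15, SE 1.10, adjusted p 0.127 in KO), although its estimates were as large as those of C3ar1. It was called from day 1 to day 3 in KO in a fit of those 2 groups alone (adjusted p 0.0413).

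**Figure D3:**
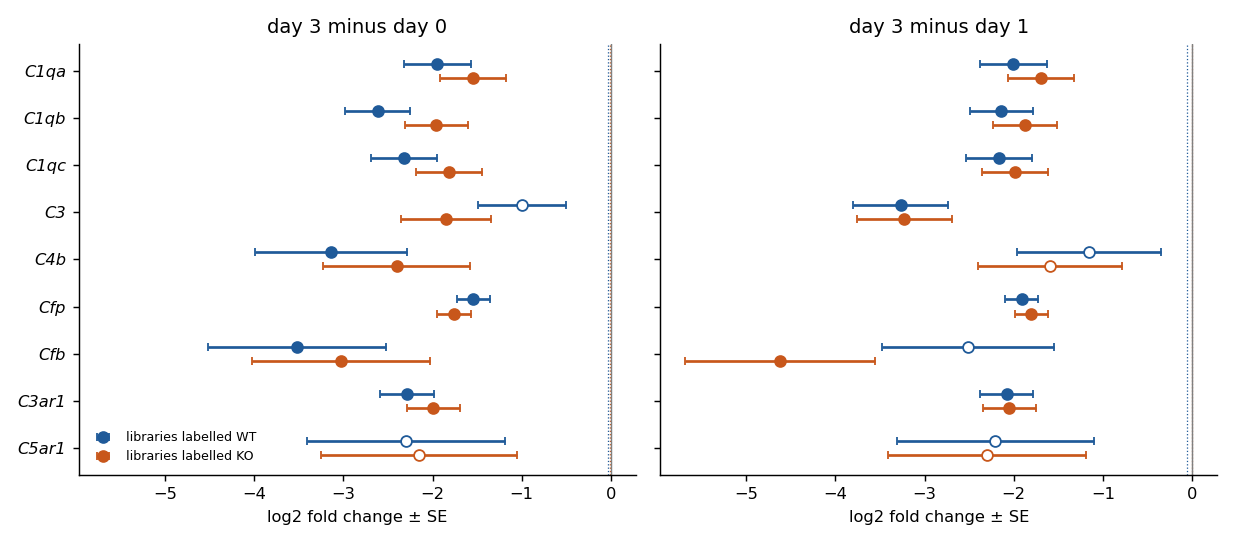
Log2 fold change with SE (horizontal) of each complement gene (vertical) from day 0 to day 3 and from day 1 to day 3, in the libraries labelled WT and KO. Filled points were called at an adjusted p under 0.05 and open points were not, dotted lines are the medians of all genes tested; every point lies below 0, from -1.0 (C3 in WT, day 0 to day 3) to -4.62 (Cfb in KO, day 1 to day 3).

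C4b, the C4 component of the classical pathway, was low and uneven on day 0. It gave 16.9, 22.6 and 189 CPM in WT day 0, 31.1, 13.2 and 13.3 CPM in WT day 1, and 6.5, 8.23 and 11.2 CPM in WT day 3. In KO it gave 82.8, 14.5 and 91.7 CPM on day 0, 54.5, 22.1 and 31.4 CPM on day 1, and 14.6, 11.6 and 9.57 CPM on day 3. The day 0 libraries thus fell into values near 20 CPM and values above 80 CPM, and in KO the lowest day 0 library was at the level of day 3.

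C4b was called lower on day 3 than on day 0 in WT (8.79-fold, adjusted p 0.00744) and in KO (5.29-fold, adjusted p 0.0302). Without WT day 0 library 3 the WT log2 fold change of C4b went from -3.14 to -1.17 and the call was lost (adjusted p 0.12). The KO call of C4b was lost without KO day 0 library 1 (adjusted p 0.0768) or 3 (0.0923) and without KO day 3 library 1 (0.0622), 2 (0.0836) or 3 (0.0875), and with total counts as the scale (adjusted p 0.0542). With limma on log2(FPKM + 1) the C4b calls were lost under both labels (-1.53, adjusted p 0.0829 in WT and -1.44, adjusted p 0.11 in KO). The 3 day 0 libraries high in C4b were those with the highest stromal sums of that day (5404 CPM in WT library 3, 4145 and 4180 CPM in KO libraries 1 and 3, against 114 to 1309 CPM), yet on day 3 the stromal sums were higher than in any earlier library and C4b was at most 14.6 CPM. The part of stromal cells in C4b was not tested. C4a, a near-identical copy, had at most 22 counts in any library, and how the counting divided reads between the copies is uncertain.

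Cfb, the factor B gene, gave 39.9, 19.4 and 151 CPM in WT day 0, 44.5, 18.6 and 41.5 CPM in WT day 1, and 4.34, 9.29 and 4.77 CPM in WT day 3. In KO it gave 18, 14.1 and 62.6 CPM on day 0, 225, 30.0 and 31.9 CPM on day 1, and 5.54, 0.734 and 5.33 CPM on day 3. Single libraries stood above their groups on day 0 (WT library 3) and day 1 (KO library 1), and these had the highest sums of the 12 interferon response genes in their groups (5070 and 3731 CPM), while KO day 0 library 3, the highest of its group in Cfb, did not (1977 CPM). All 12 interferon response genes were called lower on day 3 than on day 0 under both labels, beside 26.5% of all genes in WT and 22.3% in KO. Their sum went from 1283 to 5070 CPM to 199 to 458 CPM. Their part in the Cfb values was not tested.

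The fall of Cfb from day 0 to day 3 was 11.5-fold in WT (log2 fold change -3.52, SE 1.00, adjusted p 0.00972) and 8.13-fold in KO (log2 fold change -3.02, SE 1.00, adjusted p 0.0254). The WT call of Cfb was lost without WT day 0 library 3 (log2 fold change -2.25, adjusted p 0.0555), and the KO call without KO day 0 library 3 (-2.02, adjusted p 0.128) or KO day 3 library 2 (-2.54, adjusted p 0.0871). With limma on log2(FPKM + 1) the fall of Cfb was smaller in WT (-2.12, adjusted p 0.0288) and was not called in KO (-1.73, adjusted p 0.0734). From day 1 to day 3 Cfb fell 24.6-fold in KO (log2 fold change -4.62, SE 1.06, adjusted p 0.00575), and in WT it was not called (log2 fold change -2.51, adjusted p 0.0599). The size of the KO change of Cfb rested on KO day 1 library 1. Without that library the log2 fold change was -2.97 (adjusted p 0.0378), with limma on log2(FPKM + 1) it was -2.83 (adjusted p 0.00999), and with the single-hyphen libraries alone the call was lost (-3.01, adjusted p 0.113). Cfb overlaps a read-through locus on the same strand, Gm20547 (chr17:34856412-34882042), which had 0 to 394 counts per library, and how the counting assigned shared reads is uncertain.

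**Figure D4:**
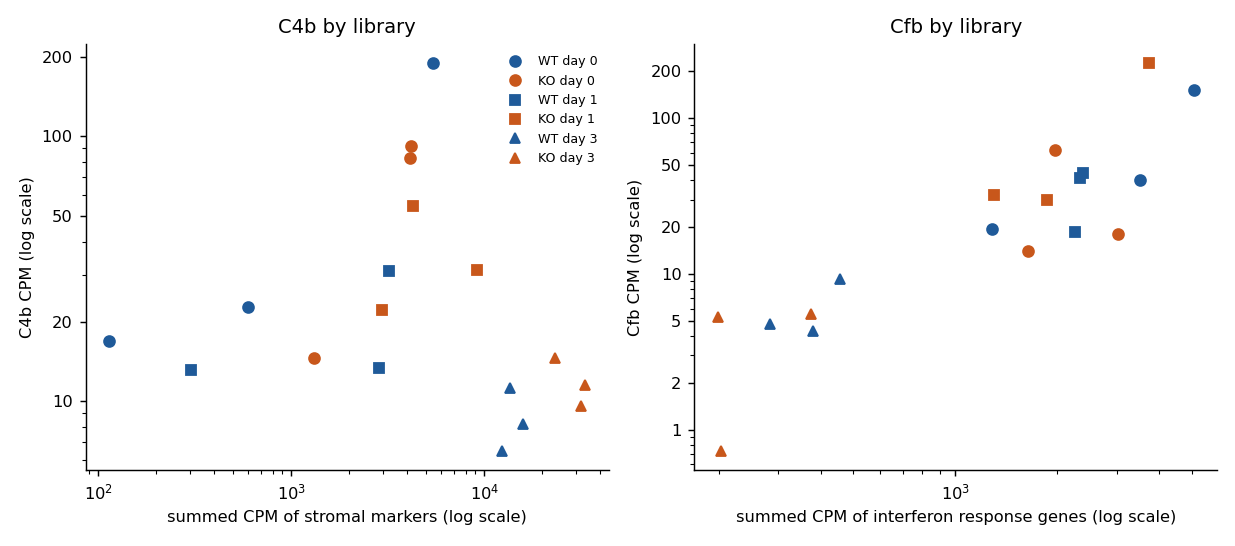
C4b CPM against the summed CPM of stromal markers, and Cfb CPM against the summed CPM of interferon response genes, all on log scales, with 1 point for each of the 18 libraries, colour for the label and shape for the day. On day 3 C4b is 6.5 to 14.6 CPM, overlapping the lowest libraries of days 0 and 1, while every stromal sum is above those of the earlier days, and Cfb and the interferon sum are both lowest.

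No member was called between the labels. On each day, 0 of the 9 were called between KO and WT, in comparisons that called 0.119% (day 0), 0.112% (day 1) and 0.14% (day 3) of all genes tested. Averaged over days, 0 of 9 were called where 1.59% of genes were, and 0 of 9 had a label-dependent change from day 0 to day 3 where 0% of genes did (edgeR). At an unadjusted p under 0.05, the count was 1 on day 0 (C3) and 0 in the other comparisons between labels, and DESeq2 called 0 of 9 in each of them. In edgeR, 1081 of all 14241 genes tested had such a p on day 0, 1125 on day 1 and 1521 on day 3. The number was 2622 averaged over days and 769 for the label-dependent change. The C3 estimate on day 0 was a log2 difference of 1.09 (KO minus WT, SE 0.50, p 0.0436 and adjusted p 0.648 in edgeR), and the groups overlapped (109 to 301 CPM in KO, 45.0 to 129 CPM in WT). Without KO day 0 library 3 the C3 difference was 0.56, and with the single-hyphen libraries alone it was 1.75.

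The 95% intervals of the averaged log2 differences, KO minus WT, were -0.15 to 0.74 for C1qa, -0.11 to 0.73 for C1qb and -0.12 to 0.76 for C1qc. The receptors had -0.30 to 0.41 for C3ar1 and -1.01 to 1.6 for C5ar1. C3 had -0.09 to 1.12, Cfp -0.42 to 0.03, C4b -0.61 to 1.34 and Cfb -1.25 to 1.02. The averaged C1q estimates were up to 1.25-fold higher in KO without passing the test. By day, they were largest on day 3, at 1.45-fold for C1qa, 1.53-fold for C1qb and 1.46-fold for C1qc. None of these was called (adjusted p 0.632, 0.544 and 0.619 in edgeR). For C3, C4b, C5ar1 and Cfb the averaged intervals reach beyond a log2 difference of 1. The C4b estimate (0.36) was 1.01 without WT day 0 library 3 (adjusted p 0.0684).

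**Figure D5:**
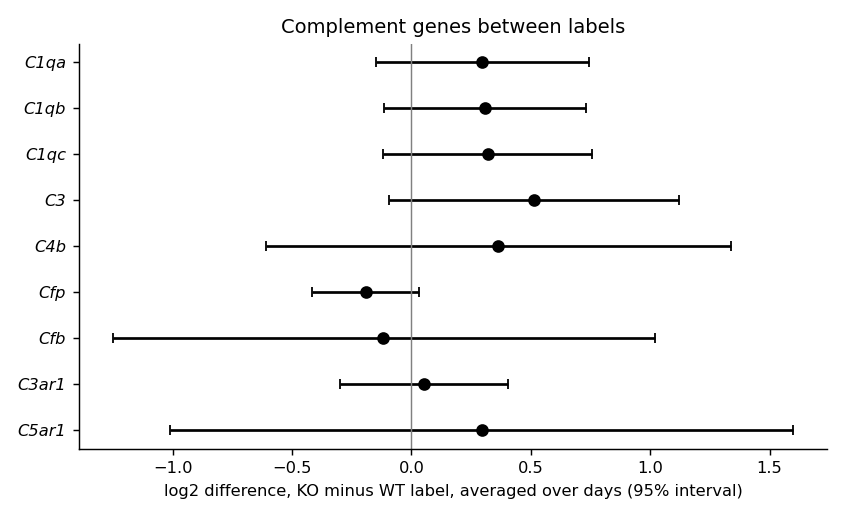
Log2 difference between the libraries labelled KO and WT (horizontal), averaged over the 3 days, for each complement gene (vertical), with the 95% interval as bars. All 9 intervals include 0, and the narrowest is that of Cfp (-0.42 to 0.03).

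Other genes of the complement system were less uniform. Of 47 further genes (49 lines of the table), 27 lines were tested. Between days 0 and 3 in WT, 5 were called higher and 8 lower, with a median log2 fold change of -0.21. In KO, 7 were higher and 9 lower, with a median of -0.16. Of all 14241 genes tested, 26.5% were called lower in WT and 22.3% in KO. The share of all genes called higher between these days was not counted. On day 1, 1 was higher in WT, the shared chain of the complement-binding integrins Itgb2 (from 647 to 1370 CPM, log2 fold change 1.09, adjusted p 0.0381). In KO 0 were called (3 at an unadjusted p under 0.05). Of all genes tested, 1.44% were called higher in WT on day 1, and 1456 had an unadjusted p under 0.05 in KO. Between the labels 0 of the 27 were called in any comparison in edgeR. On days 0, 1 and 3, 2, 4 and 4 had an unadjusted p under 0.05, with 8 in the average over days. Over all 14241 genes tested these numbers were 1081, 1125, 1521 and 2622.

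Among the classical and lectin pathway genes, the serine protease gene C1s1 rose from 1.32 to 7.86 CPM in WT (log2 fold change 2.55, adjusted p 0.0079) and from 1.38 to 18.2 CPM in KO (3.71, adjusted p 0.00124). Masp1, a protease of the lectin pathway, rose by 3.00 (adjusted p 0.0207) and 2.53 (adjusted p 0.0459) on the log2 scale. The stromal markers rose with them, and their part in these rises was not tested. Fcnb, a ficolin of granulocyte precursors, had the largest fall (log2 fold change -5.29, adjusted p 0.00195 in WT and -4.31, adjusted p 0.00397 in KO). Of the neutrophil markers, 10 of 10 were called lower under both labels, beside 26.5% of all genes in WT and 22.3% in KO.

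Among receptors, Vsig4, a macrophage receptor of C3 fragments, fell (log2 fold change -2.82, adjusted p 0.0022 in WT and -2.44, adjusted p 0.00613 in KO), and so did C5ar2, the second receptor of the C5-derived peptide (-2.33, adjusted p 0.000126 and -1.85, adjusted p 0.000872). C1qbp, a mitochondrial protein also described as a C1q-binding protein, rose from 39.1 to 125 CPM in WT (log2 fold change 1.68, adjusted p 5.1e-05). It also rose in KO, from 47.7 to 97.3 CPM (log2 fold change 1.03, adjusted p 0.00214). Serping1, the C1 inhibitor, rose in KO (log2 fold change 2.81, adjusted p 0.0199), and in WT its estimate was 2.07 (adjusted p 0.062). Of the 7 terminal pathway genes 4 had 0 counts in every library and their summed level never exceeded 2.40 CPM. The plasma proteases Cfd and Cfi had at most 1 and 0 counts in any library.

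Over the 18 libraries, the genes whose log2 CPM followed the mean of the C1q chains most closely among 9297 compared were Ms4a7 (Pearson r 0.985), Fcgr1 (0.983) and Lst1 (0.976). For C3ar1 they were P2rx4 (0.993), Gpr65 (0.989) and Kif3b (0.989), for Cfp Srgap2 (0.969), Dpep2 (0.968) and Pigz (0.958), and for C3 Cxcl16 (0.909), Fgr (0.897) and Zmynd15 (0.895). Cfb was closest to Ms4a4c (0.935), Pydc3 (0.923) and Gm4955 (0.918), C4b to Psmb9 (0.866), Grk6 (0.859) and Gm1966 (0.854), and C5ar1 to Acer3 (0.831), B4galt5 (0.814) and Galns (0.812). Among the members, C1qb and C1qc were most alike (0.992) and C4b and C5ar1 least (0.315). These values describe libraries that share the same 6 groups, so the days alone give high correlations.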

How the data were processed

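RNA of 18 libraries of bone marrow-derived macrophages, 3 in each of 6 groups of label and day, was sequenced by the authors after messenger RNA library preparation (SMARTer kit). The authors deposited read counts per gene and FPKM values, the latter made with StringTie and Ballgown and scaled by exon length and mapped reads. The submitters' processing notes name GRCm38.p4 (mm10) and StringTie. The aligner and the counting program are not given in the sources used here. Columns with no sample numbered 0. Counts were used for every test, and FPKM for levels between genes and 1 alternative.

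Counts were fitted in R 4.3.3 with edgeR 4.0.16 (quasi-likelihood test, all 18 libraries, 6 groups, TMM, default filter on low counts), which left 14241 genes. P-values are 2-sided and adjusted by the Benjamini-Hochberg method over these genes, with calls made at an adjusted p under 0.05. CPM are counts per 1000000 of the TMM-adjusted library size. Whether copies of a molecule made by PCR were removed before counting is not stated, so they may count as separate reads. Correlations used log2 CPM with a prior count of 2 and genes with a mean of at least 10 CPM. Alternatives were other scalings and filters, limma 3.58.1 on log2(FPKM + 1), DESeq2 1.42.0, blocks, title style, and each library left out.

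The members and lists were chosen with earlier results of these data known. All 9 members are named, and from the other complement genes up to 3 in each direction per comparison with the largest changes among those called; the groups of these genes are otherwise given as counts, and Itgb2, Cfd, Cfi and C4a were named after their values were seen. Whether replicate numbers pair libraries was checked from the correlation of deviations from group means. Every same-number pair exceeded 0.1 between days 0 and 3 (0.13 to 0.398) and days 1 and 3 (0.156 to 0.34) in KO but not in the other pairs of groups. What a shared number stands for is not stated in the labels.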

Additional observations from a re-analysis of the deposited data

How the results depend on the processing

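The 9 members' falls from day 0 to day 3 and from day 1 to day 3 kept their direction under every alternative run. Leaving out 1 library at a time gave 5 to 7 members called from day 0 to day 3 in WT and 5 to 8 in KO, where 5 came without KO day 0 library 3. With the single-hyphen libraries alone, 3 members were called from day 1 to day 3 in KO instead of 7. KO day 1 then has 1 library, assumed to vary like the other groups, and the estimates were also smaller (C1qb -1.41 in place of -1.87, C1qc -1.33 in place of -1.99). For C3 from day 0 to day 1 in WT, the count of 1 member called became 0 with only the groups compared, with the replicate block and with the replicate block within label, and 0 to 1 with a library left out. The replicate block changed no other call of the members from day 0 to day 3, but within label it added Cfb from day 1 to day 3 in WT (adjusted p 0.0377). At an unadjusted p under 0.05 with a fold above 1.5 or below 0.66, 2 members were called from day 0 to day 1 in WT, 1 in KO, and 1 between the labels on day 0. Without the fold rule, 2914, 1456 and 1081 of the 14241 genes tested had such a p in these comparisons. Total counts in place of TMM shifted the median of all genes from day 0 to day 3 to 0.33 in WT and 0.29 in KO, and 7 members were called under each label. With limma on log2(FPKM + 1), 6 were called under each label. The averaged label difference of C3ar1 (0.05) turned to -0.00185 with the single-hyphen libraries and ranged from -0.0523 to 0.129 with a library left out. That of Cfb (-0.12) turned to 0.0172 with title style as a covariate and ranged from -0.66 to 0.30 with a library left out; none was called. That of C4b (0.36) ranged from 0.21 to 1.01 with a library left out. On the log2 scale, the rise of the C1qa to C1qc ratio ranged from 0.24 to 0.44 with a library left out, C1qa to C1qb from 0.48 to 0.69 and C1qb to C1qc from -0.25 to -0.20, and with the single-hyphen libraries they were 0.18, 0.43 and -0.25 (these alternatives were chosen after seeing the data). The cause of these changes was not tested. Cfb had few counts on day 3, 12 to 158 per library.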
